A study of Mus musculus with 14 samples.

Results

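Control cells of a gene-delivery experiment were compared between 48 h and 24 h after electroporation of the embryonic mouse neocortex. The vector in these cells, CtrlGFP, expressed green fluorescent protein alone, so the comparison follows electroporated progenitors and their progeny with no added transcription factor. It used 7 of the 14 Affymetrix arrays of the series, 3 from 24 h and 4 from 48 h. The other 7 arrays, also 3 from 24 h and 4 from 48 h, held cells given the Fezf2GFP vector, made to overexpress the transcription factor Fezf2, and served as a second time series. In every group DNA was injected into the lateral ventricle of CD1 mouse embryos at E14.5, current was passed across the head, and fluorescent cells were later sorted by flow cytometry into RNA preservative. Amplification of the RNA took 2 rounds of in vitro transcription before labelling. Which promoter drove the vectors, and how many embryos an array stands for, the labels do not say. Nor do they say whether replicate arrays of a time point came from different litters, so each p-value measures the spread among these arrays, some of which may be technical.

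The genes compared were those with at least 1 probe set that the platform annotation pairs with exactly 1 symbol and that exceeded a log2 level of 4 on at least 3 of the 14 arrays. This level is called the dim level below. Of 45037 probe sets, 34945 carried 1 symbol, and 17407 of these passed, for 10300 of 18193 genes. Each gene was represented by its brightest probe set on average. In 5 genes that probe set was itself dim, which left 10295 genes tested.

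In the embryonic neocortex, radial glia line the ventricle and divide there, renewing themselves and giving rise to neurons either directly or through intermediate progenitors that divide away from the ventricle. A newborn neuron leaves the cell cycle, switches off progenitor genes, migrates along radial glial fibres toward the cortical plate, and extends an axon before it forms synapses. Progenitors labelled at this age mainly generate callosal projection neurons of the upper layers, which connect the hemispheres.

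The arrays had deposited log2 values between 0.43 and 16.47, with array medians between 3.26 and 3.50. Replicates correlated at r = 0.949 to 0.993 at 24 h and 0.942 to 0.985 at 48 h, across genes. Replicate 1 at 24 h and replicate 2 at 48 h stood apart from their groups. They had the highest medians, 3.50 and 3.45, and their deviations from the group means correlated at 0.593 across genes. Results are therefore also given without both of these arrays. Replicate 1 at 24 h also carried embryonic haemoglobin: Hbb-y was at 13.78 on it and at 4.78 and 4.45 on the other two. The Fezf2 probe set was at 10.82, 11.54 and 11.54 in CtrlGFP arrays at 24 h and at 9.31, 9.50 and 9.52 in arrays labelled Fezf2GFP, so it went against the vector label. Whether its probes lie within the part of the gene carried by the vector was not tested. The second time series is therefore called by its labels.

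Many genes of antiviral defence, of cell division and of progenitor identity were lower in control cells at 48 h than at 24 h. Many genes of the neuronal cytoskeleton, synaptic vesicles, glutamate receptors and voltage-gated channels were higher. In limma's moderated test with Benjamini-Hochberg adjustment over all genes tested, 1294 genes (12.6%) had an adjusted p under 0.05. Of these, 605 (5.88%) were higher at 48 h and 689 (6.69%) were lower. The arrays of the groups did not overlap in 1241 of the 1294. These genes were called on the same arrays, which favours separation, so that count is a description. Of all genes tested, 22.7% did not overlap, 9.93% wholly higher and 12.8% wholly lower. Changes of more than 2-fold were made by 450 of the genes that rose and 462 of those that fell. The largest changes were mostly rises, since 55 genes rose and 13 fell by more than 8-fold. The median log2 difference over all genes was -0.02, with 5388 of the 10295 below 0 and 4907 above 0. The deposited values were already normalized, with array medians of 3.26 to 3.50, so an overall shift could not be measured. With both outlying arrays removed, 1158 genes passed (588 higher and 570 lower), and 966 of the 1294 calls were kept. In bulk RNA, fewer cells of a type and less RNA of a gene in each cell cannot be told apart, and this holds for every result here. All differences below are log2 differences, 48 h minus 24 h, ± SE.

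Genes induced by interferon, which encode sensors and effectors of antiviral defence, showed the largest falls. Of the 15 genes with the largest falls, 9 were on the list described next, and Zc3hav1, Ifitm3, Ifi27 and Rnf213 are also known to be induced by interferon. The other two were the neurogenic factor Neurog1 and the acyl-CoA thioesterase Them5. Of a list of 41 interferon-induced genes, 38 were on the array and 23 were bright enough to test. All 23 had values below 0 and 17 passed (73.9%, against 12.6% of all genes), none of them upward. The median was -2.46 (median of all genes -0.02). A gene of this list that was dim at 48 h with both vectors entered the test only through 24 h arrays of either vector. That favours a fall, so these counts are a description. The other 15 were dim on too many arrays to test.

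Bst2, also known as tetherin, which holds budding virus particles at the cell surface, was at 10.48, 8.47 and 8.32 on the 24 h arrays. At 48 h it was at 2.88, 4.31, 2.89 and 2.63. All 24 h arrays were far above all 48 h arrays, of which 3 were below the dim level. The difference was -5.91 ± 0.55 (adjusted p = 5.17e-05), and its size in folds is uncertain because the 48 h mean was itself dim. Rtp4, an interferon-induced transmembrane protein, was at 9.63, 8.31 and 7.98 and then at 3.62, 3.90, 3.64 and 3.58. Since every 48 h array was dim, its fall was at least 24.9-fold, although a second probe set fell by only 0.92 (adjusted p = 0.275).

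The sensing arm of the pathway fell with the effectors. Ifih1 encodes MDA5, a cytosolic sensor of double-stranded RNA, and was at 9.19, 8.57 and 8.22 at 24 h and at 4.61, 3.28, 4.67 and 2.95 at 48 h (-4.78 ± 0.57, adjusted p = 0.000299). Irf9, the DNA-binding subunit of the complex that carries the type I interferon signal to the nucleus, fell by 2.19 ± 0.30 (adjusted p = 0.000491) and stayed well above the dim level at both times. It was picked from its list after its values were seen. Usp18, which removes the ubiquitin-like protein ISG15 and restrains interferon signalling, had 24 h values between 9.74 and 10.05 and 48 h values between 4.19 and 6.06. Among the effectors, the 2′-5′ oligoadenylate synthetase family members Oasl2 and Oas1a fell by 4.81 ± 0.58 and 3.22 ± 0.73. The guanylate-binding GTPase Gbp3 fell by 4.80 ± 0.59, and the large ubiquitin ligase Rnf213 fell by 2.91 ± 0.26 (adjusted p = 4.65e-05).

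Replicates of a time point differed in level. Oas1a was at 9.44 on replicate 1 at 24 h and at 6.99 and 6.05 on the others, and Ifit1, which binds RNA lacking host cap methylation, was at 7.61, 5.04 and 4.08. The mean level of the tested interferon-induced genes was 8.40 on replicate 1 at 24 h and 7.26 and 6.93 on the others. At 48 h it was 5.26 on replicate 2 and 4.29 to 4.87 on the others. The arrays that stood apart thus had the highest values of this list at each time. Without them the median of the list was -2.28 and 14 members were lower. Ifit1 and Oas1a were then at -2.42 (adjusted p = 0.14) and -2.28 (adjusted p = 0.06) and no longer passed. Ifi35 varied most within a time point, from 2.39 to 8.46 at 48 h, and its SE of 1.35 was the widest of the fallen genes named here.

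Microglia, the resident macrophages of the brain, can express these genes strongly. Of 18 markers of microglia and macrophages, 15 lay below the dim level on every one of the 7 control arrays, among them Aif1, Cx3cr1, Csf1r, P2ry12 and Tmem119. The summed log2 level of the list was 51.9 to 59.0 at 24 h and 53.2 to 59.6 at 48 h. The 3 members bright enough to test were all above 0, with a median of 0.88 and a maximum of 1.34, and none passed. The part of such cells in the interferon results was not tested. Antigen presentation genes are also raised by interferon in many cells. Of 9 MHC class I pathway genes tested, all 9 were below 0, with a median of -0.27, and 1 passed (11.1%, against 12.6% of all genes). This was Tapbp, the tapasin that loads peptides, at -1.31 ± 0.33 (adjusted p = 0.0182). B2m, the light chain of class I molecules, was picked after its values were seen and was at -0.40 ± 0.44 (adjusted p = 0.681).

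The promoters of genes in this list often hold sequence of the type bound by interferon-activated complexes. They were searched for an ISRE-type element, GAAA followed by any 2 bases and GAAA again, on both strands, in RefSeq promoter windows on GRCm38.p6. Such a match was present in 10 of 22 windows of the tested interferon-induced genes (45.45%), in 3.443% of all 32851 windows and in 2.733% of windows of the genes tested. A match is a description of letters and was not tested as a binding site. The following 4 were chosen after the matches were seen, to show the element beside genes that fell. Capitals mark the matches, which can overlap, and each sequence is written 5′ to 3′ on the strand of its gene.
Bst2: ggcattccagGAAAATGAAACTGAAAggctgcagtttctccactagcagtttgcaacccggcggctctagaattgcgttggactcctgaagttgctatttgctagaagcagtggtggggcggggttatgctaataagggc
Ifit1: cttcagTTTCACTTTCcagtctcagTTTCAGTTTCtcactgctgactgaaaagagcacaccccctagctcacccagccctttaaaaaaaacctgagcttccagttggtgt
Gbp3: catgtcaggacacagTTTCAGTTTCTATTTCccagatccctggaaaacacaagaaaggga
Oas1a: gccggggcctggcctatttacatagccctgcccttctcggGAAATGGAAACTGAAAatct
The Bst2 stretch is chr8:71537473-71537612 on the minus strand and Ifit1 is chr19:34640779-34640888 on the plus strand. Gbp3 is chr3:142559984-142560043 on the plus strand and Oas1a is chr5:120907526-120907585 on the minus strand. Each of the 4 stretches held 2 matches. In Bst2 and Oas1a the element reads GAAA first, and in Ifit1 and Gbp3 it reads TTTC first.

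**Figure D1:**
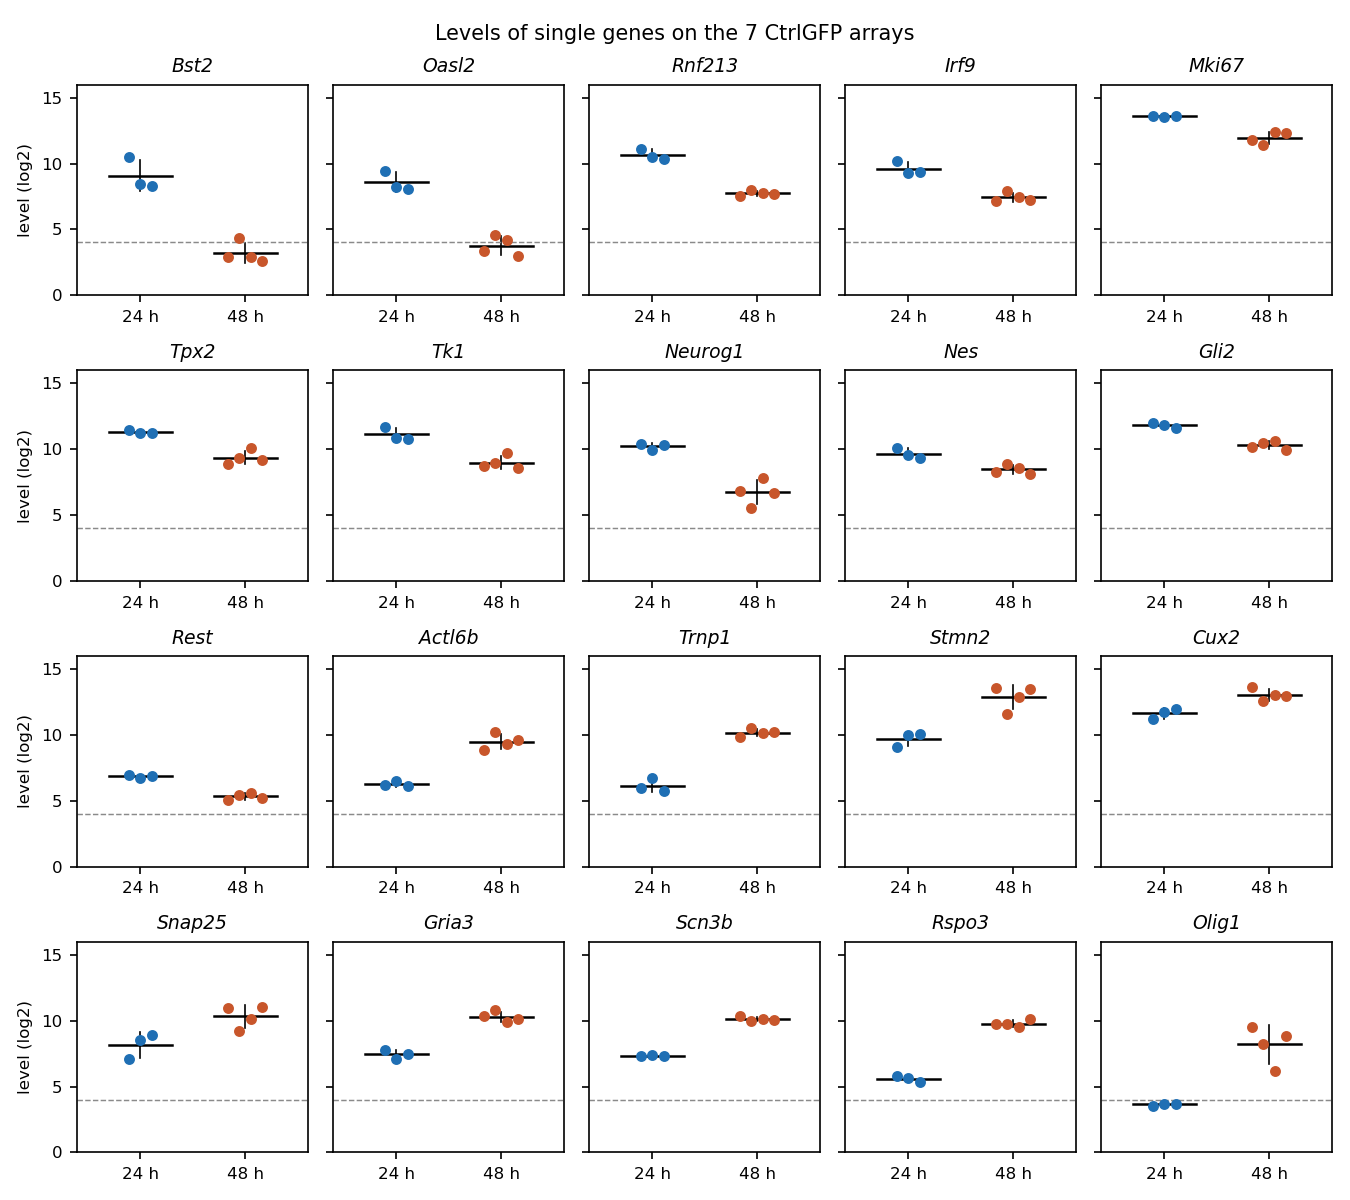
Deposited log2 level (y axis, from 0 to 16) of 20 named genes on each control array at 24 h (3 arrays, blue) and 48 h (4 arrays, orange), with the mean as a bar, the SD as a line and the dim level of 4 as a dashed line. Bst2 falls from 8.32 or more on every 24 h array to 4.31 or less on every 48 h array, while Rspo3 rises from at most 5.77 to at least 9.50.

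Most genes of mitosis fell. The list held kinases, spindle motors, kinetochore and chromosome proteins and mitotic cyclins. Of 64 tested, 51 were lower at 48 h and none was higher, all 64 had values below 0, and the median was -1.55. The list held 79.7% of its members among the called genes, beside 12.6% over all genes.

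The proliferation marker Mki67 was at 13.62, 13.53 and 13.60 at 24 h and at 11.76, 11.40, 12.38 and 12.30 at 48 h. The 24 h arrays lay close together and above every 48 h array, and the difference was -1.62 ± 0.25 (adjusted p = 0.00115), a 3.08-fold fall. The bipolar spindle factor Tpx2 went from 11.45, 11.21 and 11.20 to 8.89, 9.34, 10.09 and 9.15. This was a fall of 3.79-fold (-1.92 ± 0.25, adjusted p = 0.00043). Bub1b, the checkpoint kinase BubR1 that delays anaphase until chromosomes are attached, fell by 1.92 ± 0.23 (adjusted p = 0.000318). The chromokinesin Kif4 fell by 1.74 ± 0.22 and the spindle protein Ckap2l fell by 1.87 ± 0.25. Cdk1, the kinase that drives entry into mitosis, fell by 1.70 ± 0.27 (adjusted p = 0.00144), and Top2a, which untangles chromosomes, by 1.46 ± 0.24 (adjusted p = 0.00157). The mitotic kinases Plk1 (-2.03 ± 0.28) and Aurka (-2.06 ± 0.33) and the passenger protein Birc5 (-1.97 ± 0.48) also fell, but these 3 were picked after their values were seen.

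None of these genes reached the dim level. The lowest 48 h value among Mki67, Tpx2, Cdk1 and Top2a was 8.89, on replicate 1 for Tpx2. One 48 h array kept more mitotic message than the rest: the mean level of the list was 10.19 on replicate 3 and 9.22, 9.48 and 9.54 on the others, against 11.03 to 11.16 at 24 h. Without the arrays that stood apart, 46 members were lower and the median was -1.41.

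The promoters of late cell-cycle genes commonly carry a CHR element near a CCAAT box, the arrangement through which the DREAM and MYB-MuvB complexes are known to act. In the same windows, the CHR letters TTTGAA, on either strand, were present in 70.18% of windows of the tested mitotic genes (40 of 57). They were in 11.63% of windows of the genes tested and in 17.89% of all windows. Windows with both these letters and CCAAT made up 61.4% of the mitotic windows and 8.333% of those of DNA replication genes. They made up 4.718% of windows of the genes tested and 6.953% of all. Among called genes the pair was in 12.21% of windows of the lower ones and in 3.504% of the higher ones. The 4 stretches below show the pair beside genes that fell. They were chosen after the matches were seen, and capitals mark the CHR letters, the CCAAT letters or their complements on the opposite strand.
Cdk1: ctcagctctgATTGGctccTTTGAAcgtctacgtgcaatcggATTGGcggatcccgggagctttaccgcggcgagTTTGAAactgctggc
Ckap2l: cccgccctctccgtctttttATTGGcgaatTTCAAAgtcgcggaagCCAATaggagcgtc
Top2a: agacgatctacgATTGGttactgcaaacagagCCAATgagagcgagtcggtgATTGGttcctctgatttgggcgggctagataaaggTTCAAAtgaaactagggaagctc
Mki67: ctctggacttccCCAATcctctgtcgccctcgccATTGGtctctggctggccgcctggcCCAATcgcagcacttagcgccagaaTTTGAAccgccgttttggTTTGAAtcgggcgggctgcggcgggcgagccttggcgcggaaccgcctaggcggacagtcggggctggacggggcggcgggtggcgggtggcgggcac
On GRCm38.p6 these are chr10:69352913-69353002 for Cdk1, chr2:129297213-129297272 for Ckap2l, chr11:99024190-99024299 for Top2a and chr7:135716380-135716579 for Mki67, all on the minus strand. They held 4, 3, 4 and 5 matches.

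Genes of DNA replication were lower as well, with a smaller median than those of mitosis. Of 48 tested, 31 were lower (64.6%, against 6.69% of all genes) and none higher, all 48 were below 0, and the median was -0.96. Tk1, the thymidine kinase of the salvage route, was at 11.71, 10.85 and 10.80 and then at 8.74, 8.97, 9.70 and 8.56, a 4.38-fold fall (-2.13 ± 0.34, adjusted p = 0.00138). The replicative helicase subunit Mcm3 fell by 1.71 ± 0.26 (adjusted p = 0.00103). The licensing factor Cdt1 fell by 1.35 ± 0.21, and Lig1, the ligase that joins Okazaki fragments, by 1.34 ± 0.20. Another 4 members were picked after their values were seen. Of these, the helicase subunits Cdc45 (-2.09 ± 0.55) and Mcm2 (-1.57 ± 0.44) fell, as did E2f1, a transcription factor of S-phase genes (-1.10 ± 0.21). Tyms, the thymidylate synthase, was at -2.03 ± 0.37 by its brightest probe set and at 0.17 by a second one, so its direction is uncertain. Without the arrays that stood apart, 24 members were lower, with a median of -0.87. An E2F-type site, TTTCCCGC on either strand, was present in 14.58% of windows of the tested replication genes (7 of 48). It was in 2.068% of windows of the genes tested and in 1.068% of all windows.

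Regulators of the G1 phase were mixed. Of 22 genes that promote or restrain passage through G1 or exit from the cycle, 5 were lower and 1 higher. That made 27.3% passing, against 12.6% of all genes. The cyclins and kinases that promote entry into S phase were among the lower ones. Ccnd2 was at 14.12, 14.16 and 13.97 and then at 13.04, 13.70, 13.04 and 12.66 (-0.97 ± 0.23, adjusted p = 0.0129), and Cdk6 fell by 1.18 ± 0.24. Ccnd1 fell by 1.10 ± 0.30 (adjusted p = 0.0287), although its lowest 24 h array, at 10.70, was below its highest 48 h array, at 10.76. The antiproliferative gene Btg2, which marks progenitors about to make neurons, fell by 0.94 ± 0.24 (adjusted p = 0.0192). Cables1, which promotes the inhibitory phosphorylation of cyclin-dependent kinases, rose from between 6.36 and 7.28 to between 7.42 and 8.81 (1.38 ± 0.39, adjusted p = 0.0361). It passed in 14 of 26 alternative settings.

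Many radial glial genes were lower at 48 h. Of 31 tested, 14 were lower (45.2%, against 6.69% of all genes), none was higher, 28 were below 0 and the median was -0.93. Those that fell included a signalling receptor, a structural protein and transcription factors. Notch1, the receptor that keeps progenitors from differentiating, was at 12.47, 12.31 and 12.36 at 24 h and at 10.98, 10.58, 11.47 and 10.90 at 48 h. The groups were well separated (-1.39 ± 0.20, adjusted p = 0.000624), a 2.63-fold fall. Gli3, the main repressor of hedgehog signalling in the dorsal forebrain, was between 11.64 and 11.68 on the 24 h arrays and between 9.35 and 10.43 at 48 h (-1.78 ± 0.28, adjusted p = 0.00113). Nestin (Nes), the intermediate filament of radial glia, was at 10.11, 9.55 and 9.37 and then at 8.26, 8.90, 8.61 and 8.09 (-1.21 ± 0.23, adjusted p = 0.00367). Ddah1, which degrades methylated arginines, fell by 1.30 ± 0.21. Prom1, the CD133 protein of the apical membrane, fell by 0.93 ± 0.17, and Hmga2, a chromatin protein of young progenitors, by 2.47 ± 0.63.

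Several of the genes most used to identify radial glia did not pass. Sox2, a factor of neural stem cells, was at 12.52, 12.90 and 13.42 and then at 12.86, 11.18, 12.74 and 11.89, so the groups overlapped (-0.78 ± 0.39, adjusted p = 0.256). Pax6, which specifies dorsal progenitors, was at -1.28 ± 0.45 (adjusted p = 0.0886), and its 24 h arrays, at 10.95 or more, lay above its 48 h arrays, at 10.87 or less. Vim, another intermediate filament, was at -0.50 ± 0.16 (adjusted p = 0.0519). The Notch effectors Hes1 and Hes5 were at -1.81 ± 0.56 (adjusted p = 0.0506) and -0.49 ± 0.33 (adjusted p = 0.436). Fabp7, the brain lipid-binding protein, was at -0.28 ± 0.28 (adjusted p = 0.626). Without the arrays that stood apart, 10 members of the list were lower and the median was -0.76.

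**Figure D2:**
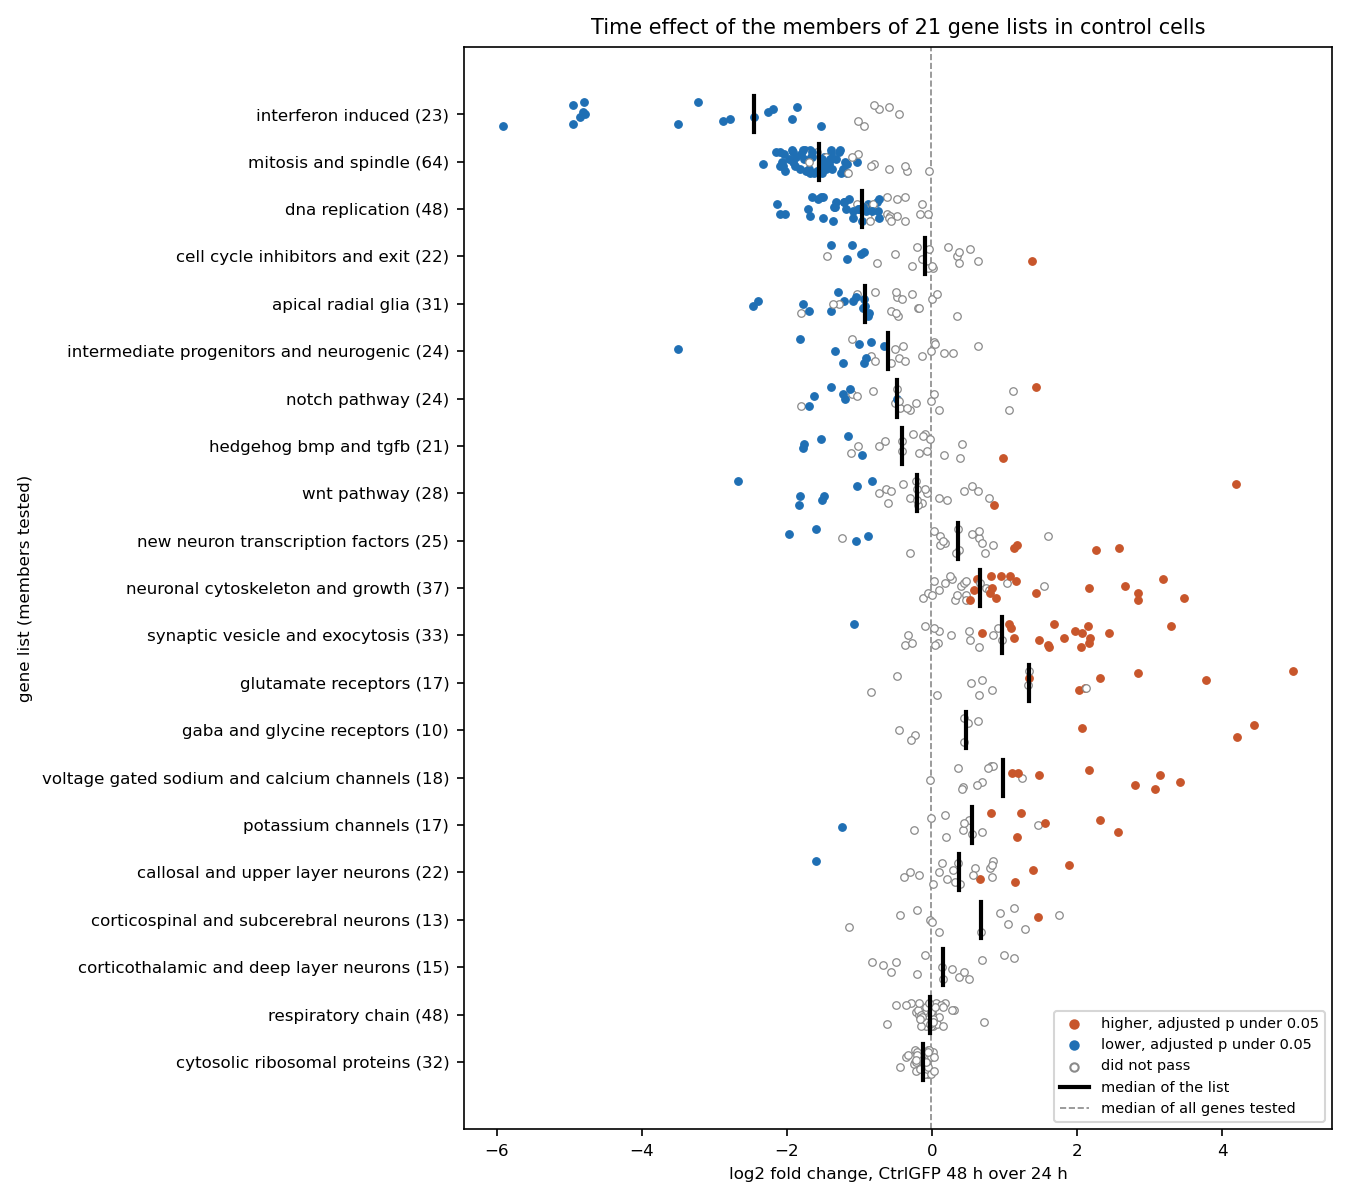
Log2 difference, 48 h minus 24 h in control cells (x axis), for each tested member of 21 gene lists (rows). Filled points passed the adjusted p threshold of 0.05, open points did not, the black bar is the list median and the dashed line is the median of all genes tested. The medians run from -2.46 for interferon-induced genes to 1.33 for glutamate receptors.

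Signalling pathways that act on progenitors fell in part. Of 24 Notch pathway genes, 7 were lower and 1 higher (33.3% passed, against 12.6% of all genes), with a median of -0.48. Besides Notch1, Notch3 fell by 1.69 ± 0.32 (adjusted p = 0.00338), the glycosyltransferase Mfng, which modifies Notch receptors, by 1.23 ± 0.29, and Gmnn by 1.62 ± 0.26. Gmnn was placed in this list although it is best known as the inhibitor of replication licensing. Dner, a Notch-binding protein of neurons, rose by 1.43 ± 0.39 (adjusted p = 0.0312).

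Of 21 genes of hedgehog, BMP and TGF-beta signalling, 5 were lower and 1 higher (28.6%, against 12.6% of all genes). Their median was -0.41. The fallen members included a series of hedgehog components. The activator Gli2 was at 12.03, 11.85 and 11.63 and then at 10.20, 10.45, 10.61 and 9.95 (-1.53 ± 0.18, adjusted p = 0.000227). The co-receptor Boc fell by 1.76 ± 0.27 and the signal transducer Smo by 1.16 ± 0.19. Id2, an inhibitor of helix-loop-helix factors and a BMP target, rose by 0.98 ± 0.18 (adjusted p = 0.00264).

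Of 28 Wnt pathway genes, 7 were lower and 2 higher (32.1% passed, against 12.6% of all genes), with a median of -0.21. The ligand Wnt7a was at 10.01, 9.61 and 9.33 and then at 7.69, 5.88, 7.61 and 6.74, a 6.36-fold fall (-2.67 ± 0.37, adjusted p = 0.000598), but a second probe set was at -0.21 (adjusted p = 0.719). The receptor Fzd8 fell by 1.84 ± 0.24, the transcriptional repressor Tcf7l1 by 1.49 ± 0.23 and the feedback target Axin2 by 0.83 ± 0.17. Going the other way, Rspo3, a secreted amplifier of Wnt signalling, was at 5.77, 5.64 and 5.37 at 24 h and at 9.76, 9.72, 9.50 and 10.14 at 48 h. This 18.2-fold rise had the smallest adjusted p of the genes named here (4.19 ± 0.21, adjusted p = 5.12e-07). The scaffold Apc rose by 0.86 ± 0.21. In the list of 15 FGF and MAP kinase feedback genes, 3 were higher and 2 lower (33.3%, against 12.6% of all genes). The MAP kinase phosphatases Dusp6 and Dusp4 rose by 2.39 ± 0.41 and 2.10 ± 0.33, while the receptor Fgfr3 fell by 2.14 ± 0.44 (adjusted p = 0.00619).

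Some genes of intermediate progenitors and of neuronal commitment fell too. Of 24 tested, 9 were lower (37.5%, against 6.69% of all genes), none was higher, 15 did not pass and the median was -0.61. The proneural factor Neurog1 was at 10.39, 9.97 and 10.33 at 24 h and at 6.86, 5.57, 7.80 and 6.67 at 48 h, an 11.3-fold fall (-3.50 ± 0.44, adjusted p = 0.000371). Its relative Neurog2, which specifies glutamatergic neurons, went from 13.79, 14.45 and 14.47 to 13.56, 12.96, 13.54 and 13.22 (-0.92 ± 0.25, adjusted p = 0.0264). Neurod4, a helix-loop-helix factor of differentiating cells, fell by 1.81 ± 0.28 and the membrane protein Igsf8 by 1.01 ± 0.17. Eomes, the defining factor of intermediate progenitors, fell by 0.83 ± 0.17 (adjusted p = 0.00529) and was still at 13.61 to 13.96 at 48 h. Insm1 and Neurod1, which act around the final division, were at 0.17 ± 0.23 (adjusted p = 0.752) and -0.13 ± 0.20 (adjusted p = 0.77).

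Transcription factors of young neurons moved in both directions. Of 25 tested, 4 were higher and 4 lower (32% passed, against 12.6% of all genes), with a median of 0.35. Myt1l, which represses non-neuronal genes, was at 10.88, 11.26 and 11.76 and then at 13.89, 12.95, 13.31 and 14.08, a 4.79-fold rise (2.26 ± 0.30, adjusted p = 0.000441). Mef2c, a regulator of neuronal maturation, rose by 2.58 ± 0.55, from between 7.85 and 8.75 to between 9.42 and 12.38. Zeb2 rose by 1.18 ± 0.33 and Scrt1 by 1.13 ± 0.31, whereas Zeb1, a factor of undifferentiated progenitors, fell by 0.89 ± 0.17 (adjusted p = 0.00338). Family members of opposite direction also occurred among the Myt factors: Myt1 and St18 fell by 1.04 ± 0.20 and 1.97 ± 0.51 where Myt1l rose. The early neuronal helix-loop-helix factor Nhlh1 fell by 1.60 ± 0.47 (adjusted p = 0.0419). The neuronal differentiation factors Neurod2 (0.55 ± 0.20, adjusted p = 0.103), Neurod6 (0.19 ± 0.14, adjusted p = 0.47) and Tbr1 (0.69 ± 0.40, adjusted p = 0.328) did not pass.

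Many cytoskeletal and axon growth genes rose. Of 37 tested, 17 were higher (45.9%, against 5.88% of all genes), none was lower, 34 were above 0 and the median was 0.66. Stmn2 and Stmn4 encode neuronal microtubule regulators of growing axons. Stmn4 was at 7.88, 7.61 and 7.62 and then at 11.83, 10.70, 11.13 and 11.03, an 11.1-fold rise (3.47 ± 0.39, adjusted p = 0.000207). Stmn2 was at 9.07, 9.96 and 10.07 and then at 13.57, 11.59, 12.89 and 13.48 (3.18 ± 0.44, adjusted p = 0.00055). In both genes every 48 h array was at least 1 log2 unit above every 24 h array. The axonal microtubule protein tau (Mapt) rose 4.46-fold (2.16 ± 0.31, adjusted p = 0.000656). Cnr1, the cannabinoid receptor of growing axons, rose by 2.84 ± 0.43. The neuronal tubulin Tubb3, already at 12.69 to 13.07 at 24 h, rose by 0.80 ± 0.21 (adjusted p = 0.025). The widely used early markers Dcx (0.34 ± 0.22, adjusted p = 0.383) and Map2 (0.46 ± 0.21, adjusted p = 0.186) did not pass.

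A known exchange of chromatin and splicing regulators accompanies exit from the cell cycle in neurons. Actl6b, the BAF53b subunit of the neuronal BAF remodelling complex, was at 6.18, 6.50 and 6.11 and then at 8.86, 10.19, 9.33 and 9.60, a 9.42-fold rise (3.24 ± 0.29, adjusted p = 4.98e-05). Its counterpart in progenitors, Actl6a, was at -0.15 ± 0.16 (adjusted p = 0.653). Rest, which silences neuronal genes in other cells, was at 6.97, 6.72 and 6.91 and then at 5.03, 5.47, 5.63 and 5.21, a 2.89-fold fall (-1.53 ± 0.23, adjusted p = 0.000954). Over the whole list of 54 chromatin genes, 2 were higher and 5 lower (13% against the 12.6% of all genes). Chd5, a neuronal remodeller, rose by 1.95 ± 0.36, while Chd7 and Hdac9 fell by 2.13 ± 0.59 and 0.82 ± 0.24.

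Among 35 regulators of splicing and RNA binding, 6 were higher and 2 lower (22.9% passed, against 12.6% of all genes). The neuronal splicing factor Rbfox1 was at 9.11, 10.74 and 10.33 and then at 12.40, 12.72, 12.23 and 12.32 (2.36 ± 0.32, adjusted p = 0.00056). Celf5 and Celf4, RNA-binding proteins of neurons, rose by 1.79 ± 0.28 and 1.29 ± 0.23, and Rbm24 by 2.79 ± 0.44. Igf2bp1, an RNA-binding protein of fetal progenitors, fell by 1.94 ± 0.36 (adjusted p = 0.00315), and Mbnl2 by 1.24 ± 0.21. Ptbp1, the splicing repressor of progenitors, was at -1.81 ± 0.63 (adjusted p = 0.079) and its neuronal relative Ptbp2 at 0.42 ± 0.59 (adjusted p = 0.759).

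Genes of projection neuron subtypes were held in 3 lists. Of 22 callosal and upper-layer genes, 4 were higher and 1 lower (22.7% passed, against 12.6% of all genes), with a median of 0.37. Cux2, a factor of upper-layer neurons, was at 11.18, 11.74 and 11.99 and then at 13.63, 12.56, 13.01 and 12.93, a 2.63-fold rise (1.40 ± 0.29, adjusted p = 0.00705). Pou3f2, also known as Brn2, was at 0.66 ± 0.20 (adjusted p = 0.0496), with a second probe set at -0.21, so its direction is uncertain. The activin subunit Inhba rose by 1.14 ± 0.31 and the Kit ligand Kitl by 1.88 ± 0.53, while the adhesion protein Nectin3 fell by 1.60 ± 0.35. Of 13 corticospinal and subcerebral genes, 1 passed (7.69%), the guidance receptor Ephb1 (1.46 ± 0.38, adjusted p = 0.0232). None of 15 corticothalamic genes passed in limma's test, and 1 had an unadjusted p under 0.05. The subcerebral factor Bcl11b, also known as Ctip2, was at 0.67 ± 0.31 (adjusted p = 0.212), and Fezf2 itself was at -1.15 ± 0.35 (adjusted p = 0.0503).

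Many genes of the synapse rose. Of 33 synaptic vesicle and exocytosis genes, 17 were higher and 1 lower (54.5% passed, against 12.6% of all genes), and the median was 0.97. Snap25, a core protein of vesicle fusion that was picked after its values were seen, was at 7.07, 8.52 and 8.90 and then at 10.97, 9.20, 10.14 and 11.05 (2.18 ± 0.47, adjusted p = 0.00779). The lowest 48 h array was replicate 2, just above the highest 24 h array. The fission GTPase Dnm1 was at 3.81, 4.76 and 3.84 and then at 8.03, 7.31, 7.15 and 7.21 (3.29 ± 0.48, adjusted p = 0.000764), and 2 of its 24 h arrays were dim. The fusion clamp complexin (Cplx1) rose by 2.06 ± 0.31, the vesicle glycoprotein Sv2a by 1.97 ± 0.30 and the priming factor Cadps by 1.68 ± 0.25. Syn2, a synapsin that tethers vesicles, went the other way, from between 9.45 and 10.19 to between 8.40 and 8.94 (-1.07 ± 0.20, adjusted p = 0.00341).

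Glutamate receptor genes had the highest median of the named lists, 1.33, with 7 of 17 higher (41.2%, against 5.88% of all genes) and none lower. A member that was dim at 24 h entered the test through its level on other arrays, so the counts and medians of this and the other neuronal lists are a description. Gria3, a subunit of AMPA receptors, was at 7.79, 7.13 and 7.48 and then at 10.38, 10.82, 9.91 and 10.10, a 7.12-fold rise (2.83 ± 0.26, adjusted p = 5.17e-05). Gria1 was at 5.15, 4.22 and 3.56 and then at 8.61, 7.88, 8.34 and 7.51 (3.78 ± 0.49, adjusted p = 0.000389), and 1 of its 24 h arrays was dim. The auxiliary subunit Cnih2, which takes AMPA receptors through the secretory pathway, rose by 2.11 ± 0.25. The scaffold Dlg2, known as PSD-93, went from 2.61, 3.60 and 4.60 to 8.99, 7.62, 8.79 and 8.88 (4.97 ± 0.46). Of its 24 h arrays 2 were dim, and its second probe set rose by 0.94. Of the 10 receptors for GABA and glycine tested, 3 were higher (30%, against 5.88% of all genes). They were Gabra2 (4.44 ± 0.55), Gabrb2 (2.07 ± 0.47) and Glra2 (4.20 ± 0.63).

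Of 18 voltage-gated sodium and calcium channel genes, 8 were higher (44.4%, against 5.88% of all genes) and none lower, with a median of 0.97. The auxiliary sodium channel subunit Scn3b was at 7.35, 7.40 and 7.29 and then at 10.37, 9.99, 10.13 and 10.07, a 6.94-fold rise (2.79 ± 0.29, adjusted p = 0.000109). The pore-forming subunit Scn2a rose 10.7-fold (3.41 ± 0.39). The presynaptic N-type channel Cacna1b rose by 3.07 ± 0.43 and the T-type channel Cacna1h by 3.15 ± 0.44. Of 17 potassium channel genes, 6 were higher and 1 lower (41.2% passed, against 12.6% of all genes). The leak channel Kcnk2 was at 8.41, 8.46 and 8.26 and then at 10.91, 10.62, 10.59 and 10.68 (2.32 ± 0.19, adjusted p = 2.14e-05). The A-type channel Kcnd2 and the M-current channel Kcnq3 rose by 2.56 ± 0.55 and 1.56 ± 0.21. Kcna2 was dim on every 24 h array and rose at least 2.07-fold. Kcnj10, the inward rectifier of glia, fell by 1.24 ± 0.22 (adjusted p = 0.00294). The chloride transporters whose balance sets the sign of the GABA response did not pass, with Slc12a2 at -0.29 ± 0.40 (adjusted p = 0.756) and Slc12a5 at 0.50 ± 0.32 (adjusted p = 0.389).

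**Figure D3:**
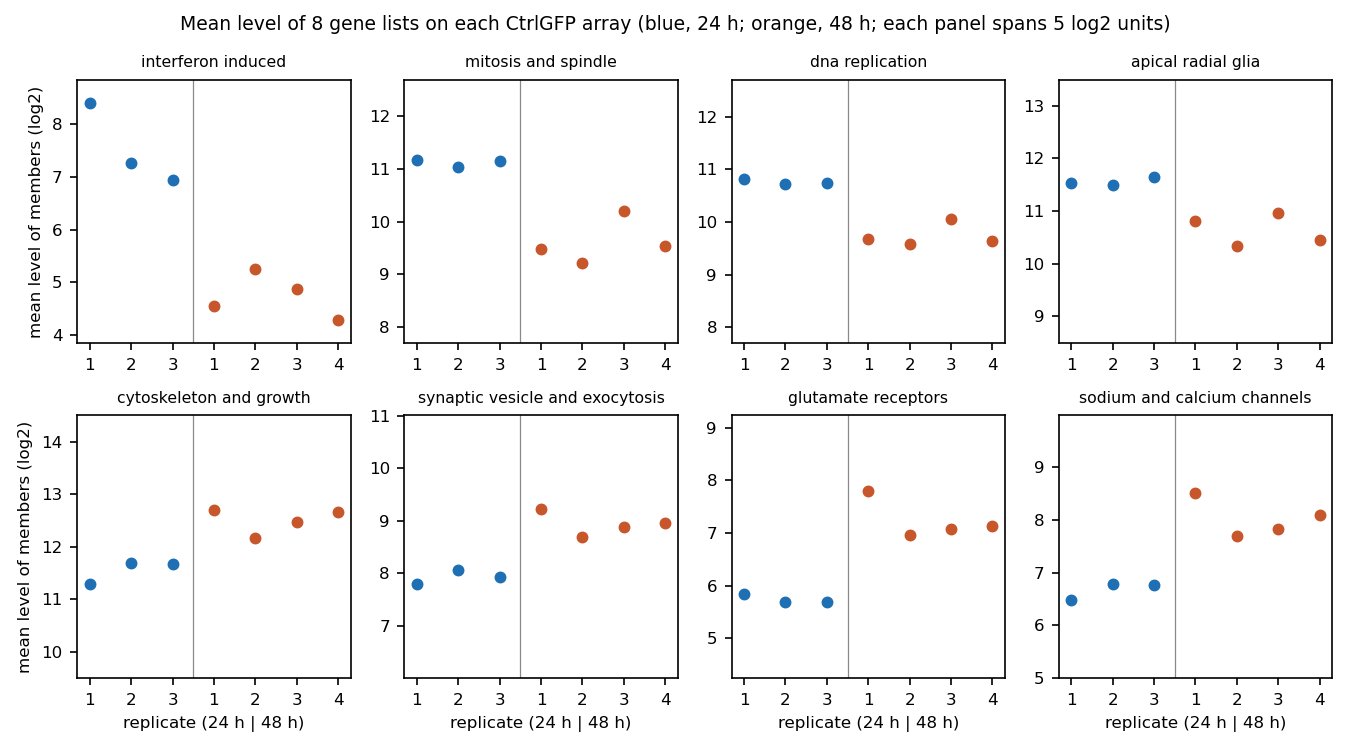
Mean deposited log2 level of the tested members of 8 gene lists (panels) on each of the 7 control arrays, 3 at 24 h and 4 at 48 h; every panel spans 5 log2 units. Interferon-induced genes drop from 6.93 to 8.40 at 24 h to 4.29 to 5.26 at 48 h, and the mitotic list drops from 11.03 to 11.16 to between 9.22 and 10.19.

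Adhesion, guidance and polarity genes changed in both directions, with list medians between -0.15 and 0.24 (all genes -0.02). A larger share of them passed than the 12.6% of all genes. It was 25.7% for guidance, 28.6% for ephrins and Eph receptors and 23.1% for reelin and migration. For cadherins it was 33.3% and for apical junction and cilium genes 24.1%. Of 35 guidance genes, 6 were higher and 3 lower. Robo1, a receptor for Slit repellents, was at 9.61, 8.93 and 8.97 and then at 11.58, 10.88, 11.27 and 11.48, a 4.39-fold rise (2.14 ± 0.26, adjusted p = 0.000299). The class 4 semaphorins Sema4a, Sema4f and Sema4d rose by 2.28 ± 0.35, 2.40 ± 0.39 and 1.29 ± 0.22, whereas the class 5 semaphorins Sema5a and Sema5b fell by 1.77 ± 0.39 and 0.97 ± 0.18. Ntn4, a secreted netrin, fell by 1.22 ± 0.22. Of 14 ephrins and Eph receptors, 3 were higher and 1 lower: Efna3 rose by 1.96 ± 0.22 (adjusted p = 0.00022) and Efnb3 by 0.98 ± 0.27, and Efnb1 fell by 1.07 ± 0.22.

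In the reelin and radial migration list, 3 of 26 were higher and 3 lower. The reelin receptor Vldlr and the adaptor Dab1 rose by 1.36 ± 0.25 and 1.32 ± 0.30, and Nrp1, a semaphorin receptor, by 0.82 ± 0.17. Those that fell act in the progenitor or its fibre. Gja1, the connexin 43 of radial glia, went from 11.69, 11.62 and 11.52 to 10.33, 9.71, 10.16 and 9.28 (-1.74 ± 0.22, adjusted p = 0.000376). The dynein regulator Nde1 fell by 1.63 ± 0.31 and the actin crosslinker Flna by 1.19 ± 0.24.

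Of 24 cadherins, 5 were higher and 3 lower. The protocadherin Pcdh9 was at 8.48, 7.85 and 8.50 and then at 11.86, 11.56, 10.93 and 12.27, a 10.4-fold rise (3.38 ± 0.29, adjusted p = 3.4e-05), and Cdh11 and Pcdh8 rose by 2.54 ± 0.56 and 1.05 ± 0.20. Celsr1 and Fat1, large atypical cadherins, fell by 1.67 ± 0.28 and 1.76 ± 0.43, while their relative Fat4 rose by 0.69 ± 0.20. Of 29 apical junction and cilium genes, 2 were higher and 5 lower. The polarity scaffold Pard3 fell by 1.15 ± 0.21 and the epithelial catenin Ctnna1 by 0.71 ± 0.15. The neuronal catenin Ctnna2 rose by 1.91 ± 0.39, and the polarity kinase gene Prkcz, which also yields a brain-specific form, rose by 3.25 ± 0.37 by its brightest probe set and by 0.81 by a second.

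The largest rises lay partly outside these lists. Tafa2, a secreted chemokine-like protein of the brain, was at 5.78, 5.46 and 5.22 and then at 11.15, 9.98, 10.64 and 11.01, a 36.9-fold rise (5.21 ± 0.56, adjusted p = 0.000139). Trnp1, a nuclear protein known for controlling the division and expansion of radial glia, was at 5.77 to 6.70 on the 24 h arrays and then at 9.86, 10.51, 10.12 and 10.20. All 48 h arrays were more than 3 log2 units above all 24 h arrays (4.02 ± 0.26, adjusted p = 4.12e-06), a 16.2-fold rise that ran opposite to the radial glial list. The neuronal adhesion protein Lsamp and the calcium-dependent kinase Camk4 were dim on every 24 h array and rose at least 13.9-fold and 9.59-fold. Lypd6b, a modulator of nicotinic receptors, rose by 4.41 ± 0.37, Jakmip1, a microtubule-associated protein, by 4.57 ± 0.58, and Clmp, an adhesion protein, by 4.18 ± 0.75. The remaining genes of the largest rises were Lonrf2 (4.99 ± 0.75), Btbd11 (4.73 ± 0.63) and Osbpl6 (4.37 ± 0.52). Btbd11 differed between probe sets, with 1 of the others rising by 1.45.

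Metabolic genes moved in both directions. Of 24 hypoxia and glycolysis genes, 4 were higher and 6 lower (41.7% passed, against 12.6% of all genes), with a median of -0.50. Eno2, the neuronal enolase, was at 7.70, 7.04 and 6.37 and then at 9.10, 9.77, 9.58 and 8.76, a rise of 2.26 ± 0.34 (adjusted p = 0.000957). The neuronal glucose transporter Slc2a3 rose by 0.80 ± 0.16. Hexokinase 2 (Hk2), abundant in proliferating cells, fell by 1.76 ± 0.31, lactate dehydrogenase A (Ldha) by 0.91 ± 0.19, the radial glial aldolase Aldoc by 0.88 ± 0.19 and Pdk1 by 0.92 ± 0.22. In the cholesterol synthesis list, 4 of 27 were higher and none lower (14.8%, against 12.6% of all genes). Among them were Fdft1 (0.79 ± 0.16) and Lss (1.09 ± 0.28). None of 48 respiratory chain genes and none of 32 cytosolic ribosomal protein genes passed limma's test, with medians of -0.03 and -0.12; 2 and 0 of them had an unadjusted p under 0.05. In the p53 list 2 of 12 were higher (16.7%, against 12.6% of all genes), Plk2 (1.96 ± 0.42) and Perp (0.83 ± 0.25). Perp was dim on each of the 7 control arrays. Among immediate early and heat shock genes, 1 of 19 was higher, the heat shock protein Hspa1b (1.50 ± 0.28, adjusted p = 0.00338), and 1 was lower, Btg2. In that list 10.5% passed, against 12.6% of all genes.

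Markers of other cell types were dim on all 7 control arrays to differing extents, from 5 of 22 on the array for GABAergic and subpallial cells to 12 of 14 for the meninges. None of 17 GABAergic or subpallial markers passed in limma's test, although 5 had an unadjusted p under 0.05 and 15 were above 0, with a median of 0.92, and their summed log2 level was 86.5 to 95.3 at 24 h and 89.7 to 129.6 at 48 h. Gad1, the GABA-synthesising enzyme, was at 6.22, 4.81 and 4.72 and then at 9.63, 7.66, 8.08 and 6.63 (2.75 ± 0.90, adjusted p = 0.0652). The ventral factors Dlx6, Lhx8, Nkx2-1 and Gsx2 were dim on all 7 control arrays. Replicate 1 at 48 h had the highest mean of the tested markers, 6.91, and of the GABA and glycine receptors, 9.51. The part of these cells in the receptor results was not tested.

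Of 5 tested oligodendrocyte lineage genes, the factors Olig1 and Olig2 rose (40%, against 5.88% of all genes). Olig1 was at 3.56, 3.70 and 3.71 at 24 h, dim on every array, and at 9.50, 8.23, 6.18 and 8.88 at 48 h, a rise of at least 18.3-fold (4.54 ± 0.72, adjusted p = 0.00123). Olig2 rose by 1.93 ± 0.43 (adjusted p = 0.00911). The later markers Sox10, Cspg4, Gpr17 and Nkx2-2 were dim on all 7 control arrays, and the summed level of the list was 45.8 to 49.5 at 24 h and 49.6 to 56.5 at 48 h.

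Of 18 endothelial and pericyte markers, 13 were dim on all 7 control arrays, as were 12 of 14 meningeal markers and 5 of 10 blood markers. Their summed levels were 54.0 to 60.6 and 58.1 to 59.9 for endothelium, 44.6 to 47.4 and 44.8 to 45.4 for meninges, and 34.0 to 48.4 and 33.1 to 34.7 for blood, at 24 h and 48 h. The choroid plexus and cortical hem list, in which Rspo3 was the member that passed, had 9 of 13 members dim and summed to 36.7 to 39.0 and then to 41.6 to 47.9. Of 8 tested astrocyte markers, 1 was higher (Sparcl1, 1.93 ± 0.56) and 2 were lower (Fgfr3 and Gja1, both also radial glial). That made 37.5% passing, against 12.6% of all genes, and Gfap, Aqp4, S100b and Agt were dim. None of 7 Cajal-Retzius markers tested passed in limma's test, 2 had an unadjusted p under 0.05, and Trp73, Lhx1, Lhx5 and Ebf2 were dim on all 7 control arrays.

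The same interval was measured again in the arrays labelled Fezf2GFP, and the means compared there share no array with the control means. The tests were not independent, because both came from the same fit, with a pooled variance for each gene and a common brightness filter. A gene with a small pooled variance is favoured in both, so the number of shared calls is a description. There 1241 genes passed (12.1%), 657 higher (6.38%) and 584 lower (5.67%). Of the 1294 genes called in control cells, 1264 (97.7%) had a difference of the same sign with Fezf2GFP, against 72.8% of all genes tested. In all, 757 genes passed in the same direction in both, 356 higher and 401 lower, which is 58.5% of the control calls and 61.0% of the Fezf2GFP calls. The time effects correlated across genes at r = 0.772 (Spearman rho 0.670, 10295 genes, which are not independent replicates).

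List medians had the same sign in both series for the groups described first. The medians with Fezf2GFP were -2.70 for interferon-induced genes, -1.64 for mitosis, -0.92 for DNA replication and -0.52 for radial glia. They were 0.53 for the cytoskeleton, 1.01 for synaptic vesicles and 1.58 for glutamate receptors. Bst2 fell by 5.81 ± 0.55 and Mki67 by 1.64 ± 0.25 with Fezf2GFP, and Rspo3 rose by 3.19 ± 0.21. Some differences in size between the series did not pass the test of the difference itself. Wnt7a fell by 2.67 in control cells and was at -0.65 ± 0.37 with Fezf2GFP (adjusted p of the difference 0.423). Stmn2 rose by 3.18 in control cells and by 1.50 with Fezf2GFP (adjusted p of the difference 0.848).

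**Figure D4:**
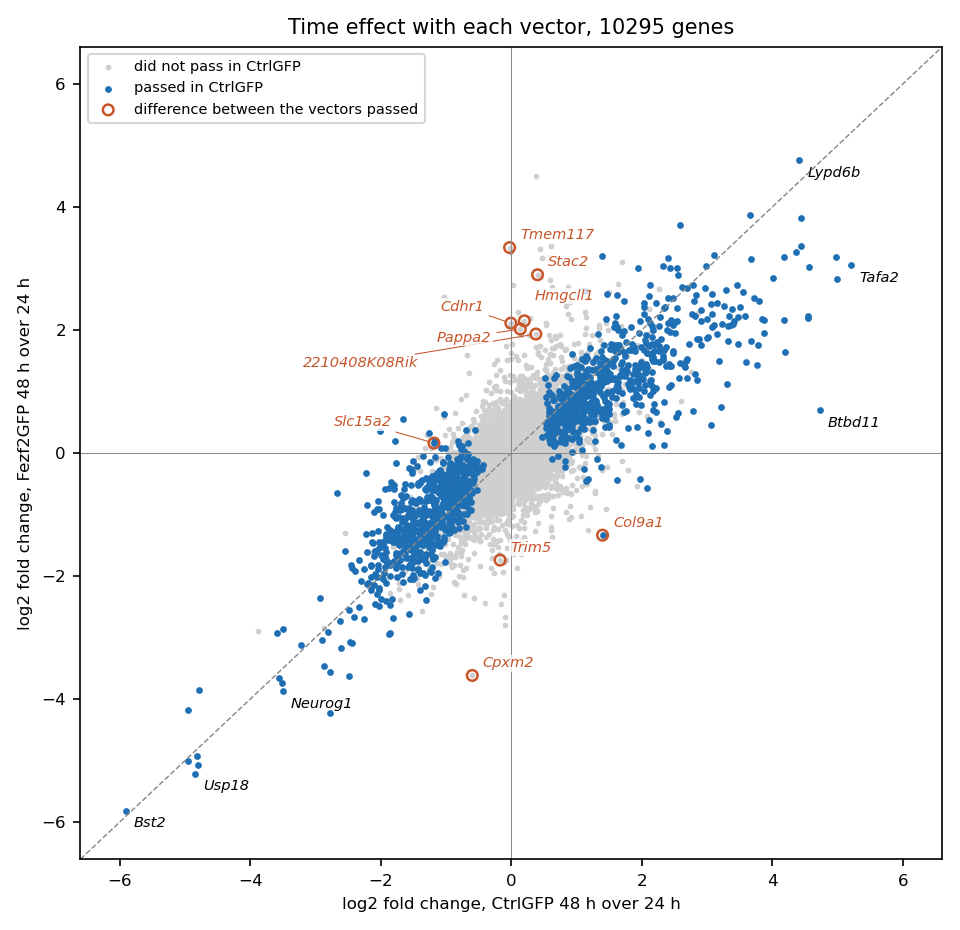
Time effect (log2 difference, 48 h minus 24 h) in CtrlGFP arrays (x axis) against arrays labelled Fezf2GFP (y axis) for the 10295 genes tested. Blue points passed in the CtrlGFP arrays, and circles mark the 10 genes whose time effect differed between vectors. Most blue points lie in the quadrants of equal sign.

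The test of the difference between time effects, an interaction contrast in the same limma fit, called 10 genes (0.0971%), and 509 had an unadjusted p under 0.05. In 2 of the 10 the change in control cells itself passed. Col9a1, a collagen chain, was at 6.96, 6.68 and 6.22 and then at 7.92, 8.29, 8.14 and 7.73 in control cells, a rise of 1.40 ± 0.27. In the arrays labelled Fezf2GFP it was at 8.90, 8.53 and 9.63 and then at 7.23, 7.66, 7.91 and 7.93, a fall of 1.33 ± 0.27 (difference 2.73 ± 0.39, adjusted p = 0.0159). It was the 1 gene called in opposite directions. Slc15a2, a peptide transporter, fell by 1.18 ± 0.15 in control cells and was at 0.16 ± 0.15 with Fezf2GFP (difference -1.35 ± 0.22, adjusted p = 0.037). It was named after its values were seen.

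In the remaining 8 the control arrays changed little. Tmem117, Cdhr1, Stac2 and Trim5 were dim on all 7 control arrays. They entered the test only through arrays labelled Fezf2GFP, which favours a difference between vectors, so their calls are a description. Pappa2, a protease that cleaves growth factor binding proteins, was between 4.37 and 4.88 on all control arrays and rose by 2.02 ± 0.18 with Fezf2GFP (adjusted p of the difference 0.0159). Hmgcll1 was at 0.20 ± 0.21 in control cells and rose by 2.15 ± 0.21 with Fezf2GFP. Cpxm2 was between 3.24 and 4.27 on the control arrays and fell by 3.61 ± 0.30 with Fezf2GFP. The gene 2210408K08Rik, named after its values were seen, was at 0.38 ± 0.18 in control cells and rose by 1.93 ± 0.18 with Fezf2GFP. These calls rested on single arrays: none passed when control replicate 2 or 3 at 24 h, control replicate 3 at 48 h or Fezf2GFP replicate 3 at 24 h was left out. Leaving out control replicate 1 at 24 h left 3, control replicate 4 at 48 h left 5, and Fezf2GFP replicate 1 or 2 at 24 h left 4.

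Many genes had further probe sets, which gave a check of the probe set within the same arrays. Both read the same RNA, so their agreement does not cover deviations of a whole array. The agreement over all genes with a second probe set was not computed. Of the 1294 called genes, 545 had a second member probe set. It had the same sign in 515 and the opposite sign in 30, passed the same way in 212 and passed the opposite way in none. Among the genes described, a second probe set rose by 1.01 for Gria3, 1.33 for Gabra2, 2.02 for Scn2a, 0.80 for Kcnq3, 0.90 for Sema4f, 0.90 for Cdh11 and 0.15 for Apc, none with an adjusted p under 0.05. It was at -0.70 for Top2a, -0.52 for Syn2, -0.30 for Sema5b, -0.20 for Myt1, -0.61 for Nectin3, -0.28 for Pdk1, 0.43 for Cables1 and 0.26 for Lss, and none of these passed either. Genes such as Grin1 and Ccnb1 were not analysed here, since none of their probe sets carried 1 symbol alone.

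The strongest calls did not hang on single arrays. Of 179 called genes among those named for this comparison, 138 kept their call when any 1 of the 7 control arrays was left out, and these had adjusted p of at most 0.0111 in the full fit. The other 41 lost it without at least 1 array. The numbers lost were 22, 32 and 24 without replicates 1, 2 and 3 at 24 h, and 22, 14, 11 and 26 without replicates 1, 2, 3 and 4 at 48 h, with adjusted p of up to 0.19. In the neuronal groups they were Tubb3, Zeb2, Scrt1, Nhlh1, St18, Dner, Kitl, Inhba, Pou3f2, Ephb1, Dab1, Efnb3, Fat4 and Apc. In the progenitor and division groups they were Neurog2, Btg2, Ccnd1, Ccnd2, Cables1, Cdc45, Mcm2, Birc5, Hmga2, Mfng, Numb, Mpp5, Cdh6, Fat1, Chd7 and Hdac9. Among the rest they were Ifi35, Ifit1, Tapbp, Perp, Pfkp, Ankrd37, Pdk1, Lss, Cyp51, Tm7sf2 and Sparcl1.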

How the data were processed

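Levels were log2 values deposited by the authors, 1 per probe set and array, made with GCRMA per the submitters' processing notes; no source used here gives its version or background settings. No further normalization was applied. Gene symbols came from the platform annotation: 34945 probe sets carried 1 symbol, 932 several and 9160 none, and no symbol changed through its Entrez identifier. Of 18193 genes, 10295 were tested by the brightest probe set of each, and 7898 were not. Amplification in 2 rounds starts from the 3′ end of messages and can alter their proportions. Levels of different genes or probe sets were not compared.

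A linear model with 1 mean per group was fitted over all 14 arrays with limma 3.58.1 in R 4.3.3 (lmFit, eBayes, 10 residual degrees of freedom, no block), with a two-sided moderated test, Benjamini-Hochberg adjustment over all genes tested and a threshold of 0.05. The number of arrays limits the precision, and the median SE of a log2 difference was 0.26. On simulated data with 10295 genes, of which 200 were changed, the same fit recovered 81% of the changes of 2 log2 units and 38% of those of 1, with 7 false calls among 126. The simulated noise was independent between genes and arrays, and fewer genes were changed than were called here. These figures therefore need not hold for this comparison.

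Groups, replicate numbers and times came from the sample labels. The genes named were those taken from the lists by name, the 15 largest rises and the 15 largest falls that passed without overlap between arrays, the 4 passing members of each list with the smallest p in each direction (2 where none passed), and the 8 smallest p of the difference between vectors; others are said to be picked after their values were seen. The members and gene lists were chosen with earlier results of these data known. Where every array of a group was below the dim level of 4, a fold is given as a bound: the other group's mean against the dim level. Promoter windows are RefSeq's on GRCm38.p6, and 8412 of the 10295 genes matched by symbol.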

Additional observations from a re-analysis of the deposited data

Results flagged for a closer look

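Levels at 48 h were searched for a control array far from the other 3 of its group. Such an array was found in 18 of 272 groups of 4 searched (6.62%), and chance alone gives about 1 in 20. Replicate 2, which stood apart as a whole, was the far array most often. It was lowest for Hes1 (3.22), Ptbp2 (11.31), Dlg2 (7.62), Sv2a (8.67) and Fn1 (7.01), and highest for Bst2 (4.31), Nectin3 (10.18) and Tmem117 (2.95). It was also lowest for the mean of the chromatin list (10.16) and of the meningeal list (5.76).

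Replicate 1 was highest for Inhba (5.65), Ephb1 (10.10), Hbb-y (5.78) and Lgr4 (6.23), a receptor of R-spondins picked after its values were seen. Replicate 3 was highest for Gmnn (11.29), Mpp5 (9.26) and the mean of the choroid plexus and hem list (6.69), and lowest for Sema4f (10.12). The highest Gmnn value, a gene of dividing cells, lay on the array with the highest mitotic mean at 48 h.

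The time effect differed between vectors, by the interaction test in limma, in 10 genes. The difference, CtrlGFP minus Fezf2GFP, was 3.02 for Cpxm2, 2.73 for Col9a1 and 1.57 for Trim5. It was -3.36 for Tmem117, -2.49 for Stac2, -2.12 for Cdhr1, -1.95 for Hmgcll1, -1.88 for Pappa2, -1.56 for 2210408K08Rik and -1.35 for Slc15a2. Adjusted p-values were 0.0159, 0.0286 or 0.037. For Tmem117, Stac2, Cdhr1 and Trim5, which entered the test only through arrays labelled Fezf2GFP, the calls are a description.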

How the results depend on the processing

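All 27 alternatives were written down with earlier results of these data known, 14 of them leaving out 1 array each. The 1294 calls became 797 (374 higher, 423 lower) with the control arrays fitted alone, of which 766 were kept, and 3077 (1402 higher, 1675 lower) with array weights, whose estimation stopped before it converged. Leaving out 1 array gave 911 to 1446 calls, 433 to 751 higher and 455 to 731 lower, the 455 without control replicate 2 at 24 h. The count with Fezf2GFP was 3133 with array weights and 643 to 1433 with 1 array left out (670 and 643 without Fezf2GFP replicates 2 and 3 at 24 h). Differences between vectors numbered 4 at a dim level of 6, 240 with array weights, 6 with the trend on gene span removed and 0 to 12 with 1 array left out. Radial glial calls were 9 with the control arrays alone and 9 to 16 with 1 array left out; those of intermediate progenitors were 5, 15 with array weights and 5 to 10. Sodium and calcium channel calls were 14 with array weights. With the other settings, calls were 1052 with no filter, 1275 at a dim level of 6, 1387 after quantile normalization, 1166 after median centring, 1285 with a trended robust prior, 1333 with the mean of a gene's probe sets and 1441 with the span trend removed. Ranges with 1 array left out were 13 to 17 for interferon-induced genes, 44 to 54 for mitosis, 23 to 32 for DNA replication, 13 to 19 for the cytoskeleton, 13 to 17 for synaptic vesicles and 6 to 9 for both glutamate receptors and sodium and calcium channels.

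Whether the replicate numbers pair samples is not known, and deviations from means of 3 or 4 arrays cannot decide it. Deviations of control replicates 1 correlated at -0.40, of replicates 2 at -0.31 and of replicates 3 at 0.19 between times. Between the vectors at 24 h, same-numbered arrays correlated at 0.32, 0.22 and -0.006, so not every pair lay above 0.1. At 48 h they correlated at -0.056, 0.286, 0.015 and 0.269. With the replicate number as a block, 1026 genes passed, 962 of them kept, and no difference between vectors did.

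Of the 179 single genes called, 101 passed in every alternative. Reversed values were Pou3f2 -0.21, Tyms 0.17, Insm1 -0.16, Neurod1 0.30, Ptbp1 0.025 and Egfl7 0.19 by a second probe set, Neurod1 0.085 by the mean of probe sets and Fabp7 0.033 with array weights. With 1 array left out, Ptbp2 lay between -0.14 and 0.99, Slc12a2 between -0.54 and 0.16 and Fn1 between -0.077 and 0.57 (-0.0099, -0.0097 and -0.0081 without control replicate 1 at 24 h and replicates 1 and 3 at 48 h). Fn1 was at -0.12 with the replicate block. Of these, Pou3f2 and Tyms were called. Medians of the corticothalamic, ephrin, FGF, immediate early, p53, reelin, respiratory chain, RNA regulator, astrocyte, meningeal and microglial lists changed sign in at least 1 setting. Causes were not tested. Signals near the dim level limit the dimmest genes.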

Other observations

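Some lists that barely moved in control cells held genes that moved in the arrays labelled Fezf2GFP over the same interval. Of 15 corticothalamic genes, 3 were higher and 1 lower there, with a median of 0.61 against 0.15 in control cells. Over all genes, 6.38% were higher and 5.67% lower with Fezf2GFP. The difference between vectors passed for none of the 15 genes. Lmo3, a LIM-only transcriptional cofactor of this list, was at 8.78, 8.31 and 8.65 and then at 10.43, 10.01, 10.02 and 10.20 with Fezf2GFP, a rise of 1.59 ± 0.31 (limma, adjusted p = 0.0054). In control cells it was at -0.67 ± 0.31 (adjusted p = 0.211), and the difference had an adjusted p of 0.11. B2m, picked after its values were seen, fell by 2.44 ± 0.44 with Fezf2GFP (limma, adjusted p = 0.0035) and was at -0.40 in control cells, with an adjusted p of 0.613 for the difference.

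A few genes that moved in control cells, picked here after their values were seen, did not pass with Fezf2GFP, and the difference passed in none of them. Dab1 was at -0.10 ± 0.30 there, Syn2 at 0.09 ± 0.20, Sema5a at -0.16 ± 0.39 and Dusp6 at 0.36 ± 0.41, with limma adjusted p for the difference of 0.59, 0.365, 0.819 and 0.567.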
